A study of Mus musculus with 294 samples.

Results

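The livers described here are those with a low signal of Zfp874a, a KRAB zinc finger gene on mouse chromosome 13 that the array annotation lists as C330011K17Rik. They are 72 of 294 livers, each hybridised to an expression array of its own, from F2 mice bred from B6/J and A/J. The class was chosen by the measured level of the only Zfp874a probe on the array: it holds every liver below 4.8 on the log2 scale, and the other 222 livers form the comparison. All animals carry the same labels, which state the cross and the tissue and give no treatment, age, sex or genotype. The values are normalized intensities on the log2 scale, 1 probe stood for each gene, and the classes were compared over 16642 genes other than Zfp874a. Since the classes come from a measured level, Zfp874a itself is described without a test. In an F2 cross, long stretches of a chromosome are inherited together, so a difference that goes with the Zfp874a signal and one that goes with another allele on chromosome 13 cannot be told apart here. A base difference between the strains under a probe and a difference in RNA cannot be told apart either.

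KRAB zinc finger proteins bind DNA through arrays of C2H2 zinc fingers and, through their KRAB domain, recruit the corepressor TRIM28 and the histone methyltransferase SETDB1 to silence chromatin. Zfp874a lies in a tandem cluster of such genes, called Rslcan genes after the regulators of sex limitation; RefSeq lists Zfp874a also as Rslcan15. In mouse liver, Rsl1 and Rsl2 of this cluster are known to repress male-biased genes, among them Cyp2d9 and major urinary protein genes. RefSeq gives Rsl2 as a synonym of Zfp429.

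The promoters of 4 genes of the cluster are shown because they share a short element, while Zfp874b, Zfp708 and Zfp458 differed in how they went with the class. The windows come from RefSeq, build GRCm38.p6, and run 5′ to 3′ from 250 bases before to 50 after the annotated gene start. Capitals mark a 12-base element, ACTACA followed by any 2 bases and TCCC, searched on both strands, and the palindrome TGACGTCA, the cAMP response element. For a gene with several windows, the window with the 12-base element was the one shown, so its presence there was set by that choice. This applied to Zfp708, which has 2 windows. In all 4 windows the 12-base element lies on the opposite strand and so reads as its reverse complement. These are sequences of the reference strain.
Zfp874a, chr13:67451575-67451874, minus strand: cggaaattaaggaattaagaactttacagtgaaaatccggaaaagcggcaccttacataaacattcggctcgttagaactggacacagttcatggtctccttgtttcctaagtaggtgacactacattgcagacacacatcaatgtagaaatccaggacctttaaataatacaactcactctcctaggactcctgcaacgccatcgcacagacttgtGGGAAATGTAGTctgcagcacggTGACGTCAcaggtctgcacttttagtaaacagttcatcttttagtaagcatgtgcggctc
Zfp874b, chr13:67484204-67484503, minus strand: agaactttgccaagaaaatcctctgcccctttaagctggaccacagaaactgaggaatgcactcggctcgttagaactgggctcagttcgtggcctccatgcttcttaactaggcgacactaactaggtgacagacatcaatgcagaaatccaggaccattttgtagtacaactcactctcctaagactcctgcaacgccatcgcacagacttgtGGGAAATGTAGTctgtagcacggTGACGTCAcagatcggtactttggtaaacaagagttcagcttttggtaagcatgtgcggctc
Zfp708, chr13:67081496-67081795, minus strand: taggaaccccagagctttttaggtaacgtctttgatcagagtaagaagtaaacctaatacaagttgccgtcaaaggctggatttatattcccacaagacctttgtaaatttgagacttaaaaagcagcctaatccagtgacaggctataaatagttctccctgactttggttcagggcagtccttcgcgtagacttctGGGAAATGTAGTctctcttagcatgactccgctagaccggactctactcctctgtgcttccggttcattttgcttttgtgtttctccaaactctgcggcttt
Zfp458, chr13:67268945-67269244, minus strand: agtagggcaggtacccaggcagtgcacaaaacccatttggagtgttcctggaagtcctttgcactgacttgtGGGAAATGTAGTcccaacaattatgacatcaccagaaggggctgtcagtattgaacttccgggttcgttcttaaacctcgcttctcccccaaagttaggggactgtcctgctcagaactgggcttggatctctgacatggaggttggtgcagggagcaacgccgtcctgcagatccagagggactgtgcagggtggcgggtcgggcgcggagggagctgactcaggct
The 12-base element was in 17 of 21 windows of Rslcan genes, against 595 of 32851 RefSeq promoter windows of the same length (1.81%). TGACGTCA was in 5 of these 21 windows (23.8%), against 588 of all windows (1.79%), and the 2 motifs did not overlap in the windows shown. Aligned end to end, the windows of Zfp874a and its neighbour Zfp874b were 75.3% identical and shared an unbroken run of 45 bases, while Zfp708 and Zfp458 were 55.6% and 48.6% identical to Zfp874a. All 10 measured cluster genes with a window had the element, counting a gene when any of its windows held it. Of these genes, 5 passed the test described below and 5 did not. In that test 0.643% of all genes passed, and 8 of the 20 genes closest to Zfp874a (40%). Since none of the 10 lacked the element, calls with and without it could not be compared.

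Zfp874a split the livers with a wide empty range. In the low class it ran from 2.86 to 4.11 on the log2 scale with a median of 3.33, and in the other livers from 5.65 to 7.78 with a median of 6.44. The highest values inside the class were 4.11, 3.81 and 3.79, and the lowest outside it were 5.65, 5.65 and 5.66, so no liver lay within 0.5 of the boundary. All 72 low values were below the median of their own array, so the 8.61-fold distance between the class medians may understate the difference in RNA. The other livers were not uniform: 180 of the 222 lay below 7, the remaining 42 lay at 7 or above, and the main peak had smaller peaks to its right. The low class held 24.5% of the livers (exact 95% binomial interval 19.7% to 29.8%); 25% of an F2 is expected to be homozygous for a given parental allele, and genotypes were not analysed here.

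**Figure D1:**
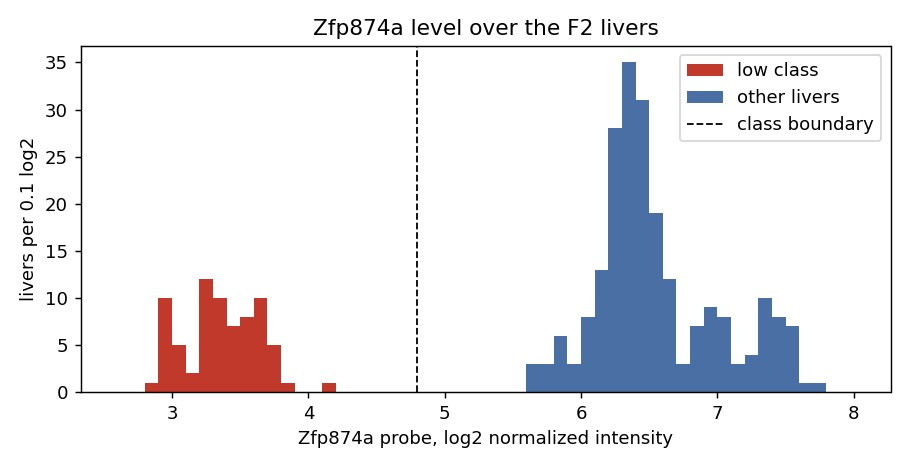
Number of livers (y axis) by log2 normalized intensity of the Zfp874a probe (x axis, bins of 0.1), with the 72 low class livers in red, the 222 other livers in blue and the boundary of 4.8 dashed. No liver lies between 4.11 and 5.65, and the other livers show a main peak near their median of 6.44 and smaller peaks to its right.

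The low class occurred in every technical and biological division of the series that could be checked, in varying shares. Y-linked Eif2s3y separates the livers at 5 on the log2 scale without values between 3.03 and 6.97, and the low class made up 27.4% of the livers above this boundary (40 livers) and 21.6% of those below it (32 of 148; two-sided Fisher's exact p = 0.279). The first 3 digits of the titles form 15 label blocks of 17 to 23 livers, whose meaning is not stated, with 1 to 11 low class livers each (permutation p = 0.187, 100000 resamples). Both were covariates in the fit reported here. Of the 27 arrays least correlated with the others, 10 belonged to the low class, and of the 18 livers with high pancreas or muscle markers, 3 did. Calls that ended without these arrays are given below only for genes named in the text. Leaving out the 27 least correlated arrays kept 87 of the genes called in the fit reported here, so more calls ended than are named. Leaving out the 18 livers with high pancreas or muscle markers ended fewer calls.

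Across the genome, 0.643% of 16642 genes differed between low class and other livers at an adjusted p under 0.05 (limma, Benjamini-Hochberg), 51 of them higher (0.306%) and 56 lower (0.336%). Most called genes lay on chromosome 13. Within 50 measured genes of Zfp874a on each side, 22 of 100 genes passed, on the rest of chromosome 13 52 of 528 (9.85%), and on all other chromosomes 33 of 15968 (0.207%). Closest to Zfp874a the share was 8 of 20 genes within 10 positions (40%), then 22% within 50, 19% in the next 50 positions on each side, and 9% in each of the 2 following bins of 50. It was 11.5% in the bin after these and 3.55% beyond, so the decline was not even along the chromosome. Order along the chromosome was taken from RefSeq.

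**Figure D2:**
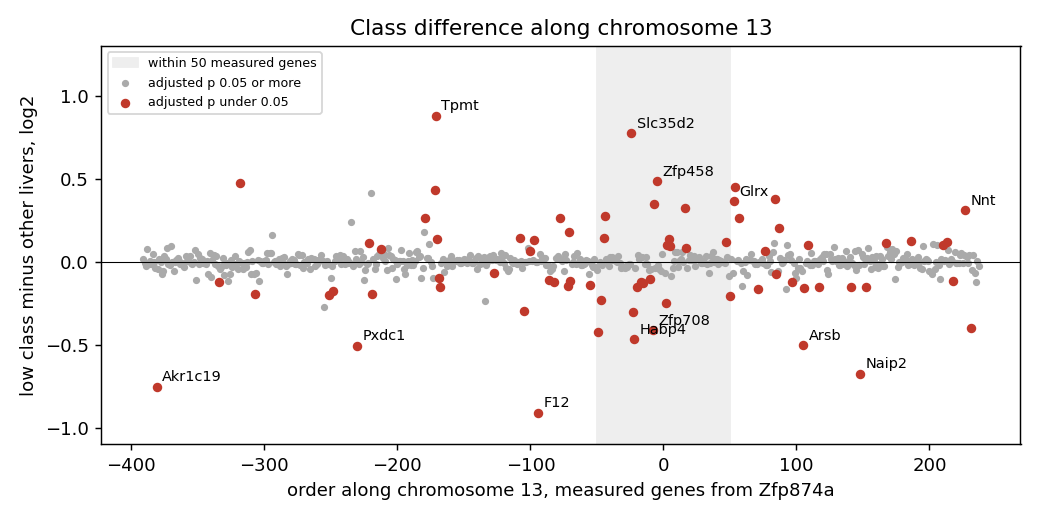
Difference between low class and other livers (y axis, log2, adjusted for Eif2s3y class and label block) for the measured genes of chromosome 13 in their order from Zfp874a (x axis), with called genes in red and the neighbourhood shaded. Called genes stand on both sides of Zfp874a and in both directions, with the lowest value at F12 (-0.91) and the highest at Tpmt (0.88).

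Among zinc finger genes of the neighbourhood, 7 of 17 named Zfp passed (41.2%), 4 higher and 3 lower in the low class. Of all 100 genes of the neighbourhood 22 passed, and of the 20 within 10 positions 8 did (40%). Many of these Zfp genes are themselves among those 20, so the shares overlap and cannot be compared as separate sets. None of the genes named Zfp on other chromosomes passed in limma, where 0.207% of all genes did. An unadjusted p under 0.05 was found for 18 of them (6.55%), against 7.31% of all genes on other chromosomes. Zfp708, a cluster gene 8 positions from Zfp874a, ran from 4.85 to 5.72 with a median of 5.29 in the low class and from 5.15 to 6.27 with a median of 5.72 in the other livers. It was lower in the low class by 1.33-fold (log2 difference -0.41 ± 0.0258 SE, adjusted p = 7.26e-38). The ranges overlapped, but 71 of 72 low class livers lay below the median of the others, and the mean difference had this direction in 15 of 15 label blocks. A second, dimmer Zfp708 probe was lower too (-0.67 ± 0.0398).

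Zfp458 and Zfp759, cluster genes 5 and 7 positions away, moved the opposite way. Zfp458 ran from 2.83 to 4.55 with a median of 3.72 in the low class and from 2.24 to 4.04 with a median of 3.14 in the other livers, 1.40-fold higher (0.48 ± 0.0435, adjusted p = 1.06e-20). Zfp759 had medians of 3.89 in the low class and 3.50 in the other livers, 1.27-fold higher (0.35 ± 0.0380, adjusted p = 1.54e-14). Both read below the median of the arrays, so these folds may understate the difference, and both overlapped widely between the classes.

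Smaller shifts were found in 3 further zinc finger genes within 4 positions of Zfp874a. Zfp58 was lower by 1.19-fold, with medians of 4.68 in the low class and 4.88 in the other livers (-0.25 ± 0.0459, adjusted p = 5.93e-05), and its second probe gave -0.23. The Zfp58 difference was -0.39 ± 0.0666 among livers above the Eif2s3y boundary and -0.07 ± 0.0645, not called, among those below it. Its dependence on the Eif2s3y class was not called (adjusted p = 0.288, interaction in limma). Zfp729a was higher by 1.10-fold and Zfp87 by 1.07-fold (adjusted p = 0.0019 for each); of the other Zfp729a probes, 1 gave 0.12 and 1 gave -0.07, neither called. The zinc finger gene Zfp367, outside the cluster, was lower by 1.23-fold, with medians of 6.14 and 6.40 in low class and other livers (-0.30 ± 0.0359, adjusted p = 1.31e-12).

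The genes next to Zfp874a on either side did not pass. Zfp429, listed as Rsl2 and next to Zfp874a on one side, ran from 2.83 to 4.25 with a median of 3.55 in the low class and from 2.80 to 4.34 with a median of 3.51 in the other livers (0.05 ± 0.0373, adjusted p = 0.846). Zfp874b, next on the other side, had medians of 3.77 in the low class and 3.80 in the other livers (-0.07 ± 0.0324, adjusted p = 0.548). Zfp455, Zfp457, Zfp595, Zfp953 and Zfp493 had differences of -0.09 to -0.02 and adjusted p of 0.0679 to 0.871. Of these, Zfp493 lay closest to the threshold: its second probe was called among all probes (-0.10 ± 0.0254, adjusted p = 0.0206 in limma), and its brightest probe was called without the label block and with it as a random block. All of these except Zfp953 read below the median of the arrays, where a difference is harder to see. Probes of near-identical zinc finger genes could share signal, and this was not tested. Of 11 measured Rslcan genes, 3 were higher, 2 lower and 6 not called, with a median difference of -0.04, against 0.00073 over all genes tested.

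Outside the zinc finger genes, the largest neighbourhood shift was that of Slc35d2. Slc35d2, a Golgi nucleotide sugar transporter gene 24 positions away, ran from 8.41 to 9.37 with a median of 9.05 in the low class and from 7.17 to 9.12 with a median of 8.36 in the other livers. It was 1.71-fold higher (0.77 ± 0.0496, adjusted p = 1.76e-36), and all 72 low class livers lay above the median of the others. Habp4, which encodes an intracellular hyaluronan- and RNA-binding protein, had 6.76 to 7.96 with a median of 7.34 in the low class and 7.02 to 8.66 with a median of 7.78 in the other livers. It was 1.38-fold lower (-0.47 ± 0.0292, adjusted p = 7.26e-38), and its second probe gave -0.62. Gas1, a hedgehog co-receptor gene 49 positions away, had medians of 8.82 in the low class and 9.27 in the other livers, 1.34-fold lower (-0.42 ± 0.0481, adjusted p = 1.93e-13).

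The remaining calls of the neighbourhood were between 1.06-fold and 1.25-fold. Ube2ql1, a ubiquitin-conjugating enzyme-like gene, had medians of 4.99 in the low class and 4.69 in the other livers, 1.25-fold higher (adjusted p = 1.56e-13). Lower in the low class were Cast, the calpain inhibitor calpastatin (1.15-fold, and lower with each of its 3 probes), the death-associated kinase gene Dapk1 (1.18-fold), the phosphatidylserine synthase gene Ptdss1 (1.08-fold), the kinase gene Cdk20 and the transporter-like gene Mfsd14b (1.09-fold each). Higher were the Mediator subunit gene Med10 (1.06-fold), 4930486L24Rik (1.10-fold), Zfp85os (1.07-fold) and Ctla2b, a cathepsin propeptide-like gene (1.21-fold, adjusted p = 0.0315). The call of Ctla2b ended with no covariates and on rank-based scores, and that of Zfp85os without the 27 least correlated arrays.

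Probes of 2 neighbourhood genes disagreed. Prxl2c, a peroxiredoxin-like gene, was lower by 1.11-fold on its brightest probe (-0.16 ± 0.0194, adjusted p = 3.05e-11) but higher on the other (0.44 ± 0.0355). Ccdc127 was higher by 1.09-fold on its brightest probe (0.12 ± 0.0209, adjusted p = 1.42e-05) and lower on each of the other 3, by 0.15 to 0.31 on the log2 scale. For these genes no direction can be given.

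Farther along chromosome 13, F12 stood out. F12 encodes coagulation factor XII, a liver-made protease that starts the contact pathway of clotting, and lies 94 measured genes from Zfp874a. It ran from 9.9996 to 11.35 with a median of 10.33 in the low class and from 10.20 to 12.10 with a median of 11.23 in the other livers. It was lower by 1.88-fold (-0.91 ± 0.0398, adjusted p = 7.35e-62), the smallest p of all genes tested, and 70 of 72 low class livers lay below the median of the others. In the low class 11 livers lay below every other liver, and 77 other livers lay above the whole low class.

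Other linked genes differed in both directions. Arsb, the lysosomal arylsulfatase B gene, had 6.25 to 8.06 with a median of 6.98 in the low class and 6.49 to 8.41 with a median of 7.54 in the other livers, 1.42-fold lower (-0.50 ± 0.0480, adjusted p = 1.78e-18), and its second probe gave -0.48. Glrx, the cytosolic glutaredoxin gene, had 9.30 to 10.29 with a median of 9.67 in the low class and 8.50 to 10.10 with a median of 9.34 in the other livers, 1.29-fold higher (0.36 ± 0.0349, adjusted p = 1.86e-18). Naip2, which encodes an inflammasome receptor for bacterial proteins, had medians of 4.49 in the low class and 5.29 in the other livers, 1.60-fold lower (-0.68 ± 0.0677, adjusted p = 4.97e-17). These 3 differences had the same direction in 15 of 15 label blocks, although the classes overlapped in each gene. The arylsulfatase gene Arsk was 1.20-fold higher (adjusted p = 2.7e-16); of the 2 other Arsk probes, neither was called.

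**Figure D3:**
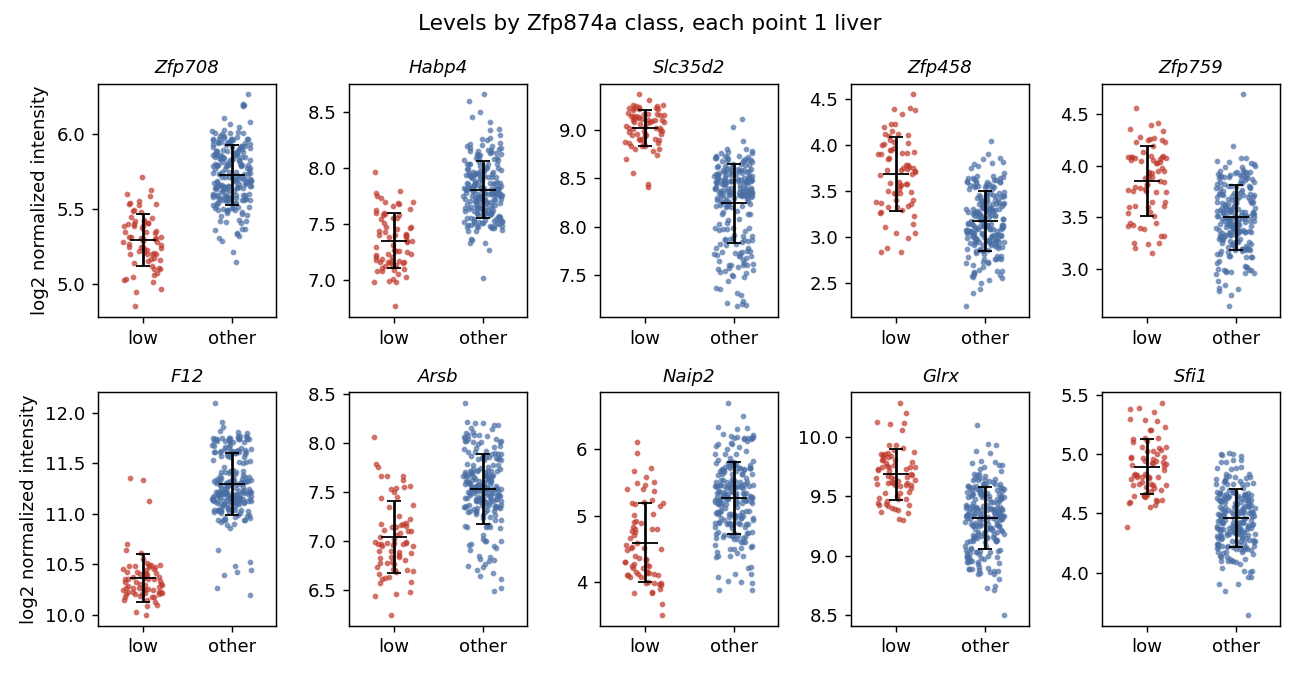
Log2 normalized intensity (y axis) of 10 genes in low class livers (red, left) and other livers (blue, right), each point 1 liver, with mean and SD in black. F12, Zfp708 and Slc35d2 separate the classes most visibly, and the classes overlap in every panel.

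The mitochondrial transhydrogenase gene Nnt, 227 positions away near the end of the measured chromosome, had medians of 10.44 in the low class and 10.23 in the other livers (0.31 ± 0.0691, 1.24-fold higher, adjusted p = 0.00233). Its levels ran over nearly the same range in both classes, from 8.97 to 11.18 in the low class and from 8.73 to 11.12 in the other livers.

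On other chromosomes, 33 genes passed, 16 higher and 17 lower, with absolute log2 differences of 0.05 to 0.71 and a median of 0.13. Sfi1, which encodes a centrin-binding protein and is placed on chromosome 11, ran from 4.38 to 5.43 with a median of 4.85 in the low class and from 3.64 to 5.01 with a median of 4.46 in the other livers. It was 1.36-fold higher (0.45 ± 0.0330, adjusted p = 5.36e-29), with 71 of 72 low class livers above the median of the others and the same direction in 15 of 15 blocks. Its second, dimmer probe was higher as well (0.16 ± 0.0288). No other gene outside chromosome 13 had an adjusted p below 1.78e-08, the value of Hoxa5.

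The next distant genes were weaker. Hoxa5, a homeobox gene, had medians of 6.28 in the low class and 6.09 in the other livers, 1.15-fold higher (0.20 ± 0.0286, adjusted p = 1.78e-08), but its second probe was not called (-0.07). The thiamine transporter gene Slc19a2 was 1.12-fold lower (adjusted p = 1.81e-06) and Sytl4, a vesicle docking gene on the X chromosome, 1.25-fold lower (adjusted p = 6.24e-06). Both overlapped over most of their range.

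Cdk5rap1 and Slc15a2 had the largest distant log2 differences and very wide spreads. Cdk5rap1, a mitochondrial tRNA modification gene, had 5.45 to 8.49 with a median of 7.32 in the low class and 5.62 to 8.11 with a median of 6.33 in the other livers (0.51 ± 0.0917, adjusted p = 2.61e-05). Slc15a2, a peptide transporter gene, had 2.56 to 6.59 with a median of 4.99 in the low class and 2.31 to 5.97 with a median of 3.62 in the other livers (0.71 ± 0.142, adjusted p = 0.000339). A second Slc15a2 probe was not called (0.03 ± 0.0280). In both genes each class covered nearly the whole range of the other.

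Of the further distant genes, Stk19, Mbp, Eepd1, 9430038I01Rik, Cacna2d4 and Pla2g12b, a phospholipase-like gene of lipoprotein secretion, were 1.06-fold to 1.13-fold higher. Mbp, Cacna2d4 and 9430038I01Rik have further probes, and none of these was called, with differences of -0.02 to 0.06 for Mbp, -0.02 and -0.01 for Cacna2d4 and 0.06 for 9430038I01Rik. Plxnb1, a semaphorin receptor gene, Lpar6, a lysophosphatidic acid receptor gene, the potassium channel subunit gene Abcc9, the calcium release channel gene Itpr1, Dap and Rcl1 were 1.06-fold to 1.10-fold lower. A second Plxnb1 probe was called and lower (-0.32 ± 0.0615), while those of Abcc9 (-0.15) and Itpr1 (-0.09) were not called. Fabp2, a fatty acid binding protein gene, was 1.13-fold higher (adjusted p = 0.0147). The calls of 9430038I01Rik, Eepd1 and Dap ended without label blocks, and those of Itpr1, Dap and Rcl1 without the 27 least correlated arrays, of which 10 are low class livers.

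**Figure D4:**
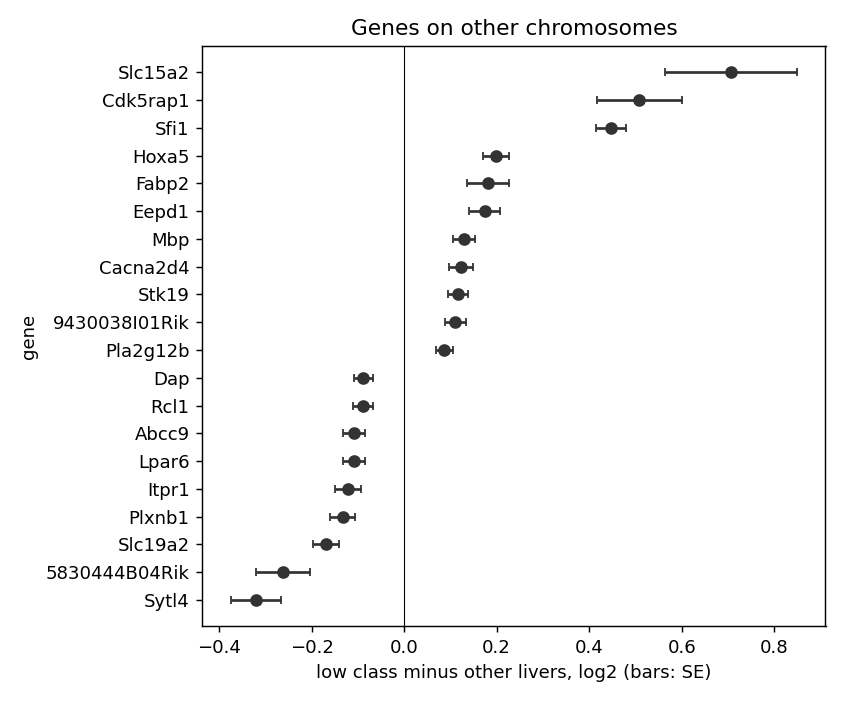
Difference between low class and other livers (x axis, log2, adjusted for Eif2s3y class and label block, bars are SE) for the 20 genes on other chromosomes with the smallest adjusted p, ordered by size. Slc15a2 (0.71), Cdk5rap1 (0.51) and Sfi1 (0.45) lie highest and Sytl4 (-0.32) lowest.

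Levels were also set against the Zfp874a signal itself, as a description. Over the 294 livers the genes most like Zfp874a by absolute Pearson r were F12 (0.849), Slc35d2 (-0.773), Zfp708 (0.742), Sfi1 (-0.664), Habp4 (0.646) and Glrx (-0.634); the points share arrays, and the distance between the classes enters each value. Among the 222 other livers alone, r was 0.520 for F12, -0.653 for Slc35d2, 0.451 for Zfp708, -0.387 for Sfi1, 0.340 for Habp4 and -0.566 for Glrx. Among the 72 low class livers the same genes had r between -0.218 and 0.0738. Of the 22 neighbourhood calls, 20 had the sign of r among the other livers that their class difference would give. This was not particular to the neighbourhood. The same was found for 14 of 15 named calls on the rest of chromosome 13 and 18 of 21 on other chromosomes. Those 15 are part of 52 calls there and include genes chosen after their values were seen.

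The uncharacterised 5830444B04Rik, placed on chromosome 4, differed from these genes in its pattern. It had the highest r with Zfp874a among the 222 other livers of all genes (0.661). It ran from 2.32 to 3.28 with a median of 2.66 in the low class and from 2.38 to 4.79 with a median of 2.81 in the other livers (-0.26 ± 0.0592, adjusted p = 0.00316). In 42 other livers it lay above the whole low class, and 28 of these had Zfp874a at 7 or above. Its medians were below the median of the arrays.

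**Figure D5:**
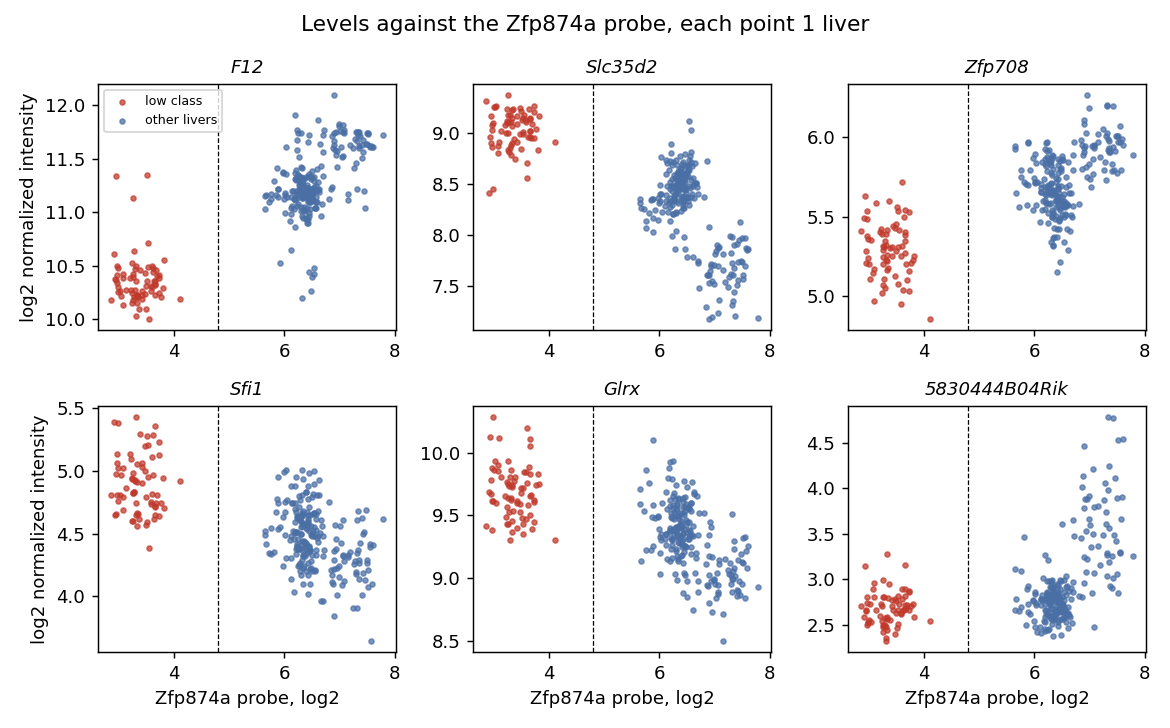
Log2 normalized intensity of 6 genes (y axes) against the Zfp874a probe (x axes, log2), each point 1 liver, with low class livers in red, other livers in blue and the boundary dashed. F12 and Zfp708 are higher and Slc35d2, Sfi1 and Glrx lower towards high Zfp874a, while 5830444B04Rik is low in the low class and in most other livers and reaches its highest values where Zfp874a is high.

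No known target of the Rsl genes passed. Of 24 listed genes 4 were measured, and 0 passed in limma at an adjusted p or at an unadjusted p under 0.05. Cyp2d9, a male-biased P450 gene, had 8.70 to 13.27 with a median of 12.35 in the low class and 7.64 to 13.38 with a median of 10.87 in the other livers. With Eif2s3y class and block accounted for the difference was 0.12 ± 0.0764 (adjusted p = 0.775). It was 0.02 ± 0.0615 among livers above the Eif2s3y boundary and 0.23 ± 0.144 among those below it. The urinary protein genes Mup3, Mup4 and Mup5 had differences of 0.04 ± 0.0327, 0.08 ± 0.0933 and 0.04 ± 0.0405 (adjusted p = 0.878 to 0.921).

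Of the other lists, those of male-biased (14 measured), female-biased (13) and KRAB corepressor genes (14) held no called member (1, 0 and 1 at an unadjusted p under 0.05 in limma), with median differences of 0.02, 0.01 and -0.01 against 0.00073 over all genes. Trim28 had -0.04 ± 0.0169 and Setdb1 -0.01 ± 0.0168 (adjusted p = 0.50 and 0.932). The fatty acid synthesis list had the highest median of the 17 lists compiled by hand, 0.17 on the log2 scale. Gpam, which starts glycerolipid synthesis, was the only called gene of its 17. An unadjusted p under 0.05 was found for 10 of the 17, against 7.96% of all genes tested. These genes were measured in the same livers and may vary together, so the 10 may not be independent. The list as a whole was not tested. Gpam was 1.10-fold higher with medians of 10.81 in the low class and 10.69 in the other livers (adjusted p = 0.0359 in limma). That call ended in 5 of the alternatives that used both Eif2s3y classes at this threshold, among them rank-based scores and leaving out the 27 least correlated arrays. A second Gpam probe was not called (0.12 ± 0.0499). The acetyl-CoA carboxylase gene Acacb (0.34 ± 0.1, adjusted p = 0.0975) and Fasn (0.25 ± 0.0813, adjusted p = 0.202) did not pass.

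Markers of other cells and tissues were not called either. No measured gene passed among 17 Kupffer cell and macrophage, 13 T and NK cell, 5 B and plasma cell, 15 endothelial, 14 stellate, 9 pancreas and 8 muscle markers. At an unadjusted p under 0.05 in limma, which 7.96% of all genes reached, there were 4 of 13 T and NK cell, 2 of 15 endothelial and 2 of 14 stellate markers and 0 in the other lists of cells. The 7 measured hepatocyte markers had a median difference of -0.003. The mean log2 level of the hepatocyte markers ran from 12.7 to 13.3 in the low class and from 12.8 to 13.3 in the other livers. In whole liver, fewer cells of a type and less RNA per cell cannot be told apart. Cholesterol synthesis, PPARA target, acute phase and interferon lists had no called gene. At an unadjusted p under 0.05 in limma there were 7 of 20 acute phase and 4 of 18 cholesterol synthesis genes. The counts were 4 of 22 for interferon and 3 of 18 for PPARA target genes. Median differences were -0.04 for acute phase, 0.05 for cholesterol synthesis, 0.07 for interferon and 0.01 for PPARA target genes. None of these lists was tested as a whole.

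The class difference depended on the Eif2s3y class for 1 of 16642 genes (0.00601%, interaction in limma), given with its levels in the closing section. It was none of the called genes described above. All 22 neighbourhood calls had the same sign in both Eif2s3y classes. Of them, 17 were called among the livers above the boundary alone and 13 among those below. The calls came from a fit to these same livers, so an equal sign in both parts was likely beforehand. Genes chosen after their values were seen are among the named calls on the rest of chromosome 13. An equal sign was also found for all 15 named calls there and all 21 on other chromosomes. Among these were Sfi1 (0.34 ± 0.0433 above and 0.58 ± 0.0495 below) and F12 (-0.93 ± 0.0485 above and -0.87 ± 0.0669 below).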

How the data were processed

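The authors deposited normalized intensities on a linear scale, 1 per probe set and array, made with RMA per the submitters' processing notes; its version and settings are not given in the sources used here. The table held 32640 probes on 294 arrays with values from 2.77 to 25519 and array medians from 21.1 to 23.2, and log2 was taken without a pseudocount. The annotation named a single gene for 25508 probes and none for 7132; symbols were updated through RefSeq (GRCm38.p6), and each of 16643 genes was represented by its brightest probe. Gene order also came from RefSeq. The deposited data name no build, so coordinates are printed only for the promoter windows, which are of build GRCm38.p6. limma (version 3.58.1) was fitted with class, Eif2s3y class and label block as terms, with Benjamini-Hochberg adjustment over all genes at a threshold of 0.05. The fit was tested on simulated data. No array was left out. Background was not measured, and the number of arrays limits the precision.

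The members and gene lists were chosen with earlier results of these data known. Named genes were up to 25 called genes of smallest adjusted p in the neighbourhood, 6 on the rest of chromosome 13 and 20 on other chromosomes, up to 10 of the interaction, the measured Rsl targets, called list members and the 6 genes of highest absolute r with Zfp874a. Uncalled Zfp neighbours, Nnt, Acacb, Fasn, Trim28, Setdb1 and the linked genes of the closing section were added after their values were seen. Of the 6 genes on the rest of chromosome 13, 1 is not reported here.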

Additional observations from a re-analysis of the deposited data

Results flagged for a closer look

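G6pc3, which encodes a broadly expressed glucose-6-phosphatase, was the only gene whose class difference depended on the Eif2s3y class (difference of the differences 0.17 ± 0.0353 on the log2 scale, livers above minus below the Eif2s3y boundary, adjusted p = 0.0252 in limma). Above the boundary it averaged 6.45 ± 0.12 in 40 low class livers and 6.33 ± 0.13 in 106 other livers (SD). Below it, the means were 6.24 ± 0.15 in 32 low class livers and 6.31 ± 0.12 in 116 other livers. The call ended with quantile normalization (adjusted p = 0.0688) and without the 27 least correlated arrays (adjusted p = 0.244).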

How the results depend on the processing

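The boundaries of 4.3 and 5.3 and leaving out livers near the boundary gave the same classes, and an intensity trend with a robust prior called the same genes. Fitting all probes called 164 probes with a gene name, 39 in the neighbourhood and 82 on the rest of chromosome 13. With an adjusted p under 0.01, 18 genes on other chromosomes remained. With 100 genes on each side the neighbourhood held 41 calls. Livers above the Eif2s3y boundary alone gave 71 calls, 29 of them on the rest of chromosome 13; livers below it gave 44, with 13 in the neighbourhood, 25 on the rest of chromosome 13 and 6 on other chromosomes, from fewer livers. The interaction count was 0 with quantile normalization (1600 genes at an unadjusted p under 0.05) and 0 without the least correlated arrays (1038 genes), against 1 in the rank-based and unblocked limma fits. Of the named calls, 20 of 22 in the neighbourhood and 15 of 21 on other chromosomes kept their call in every alternative that used both Eif2s3y classes at a threshold of 0.05. On its brightest probe, no named call changed direction in any alternative; with all probes, other probes of Prxl2c and Ccdc127 were called in the opposite direction. Where a cause is not named, it was not tested. Named calls had medians below that of the arrays in 3 of 22 cases in the neighbourhood and 4 of 21 on other chromosomes. No paired analysis was possible because all livers belong to 1 labelled group.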

Other observations

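Further genes of chromosome 13, chosen after their values were seen, differed between the classes. Tpmt, the thiopurine methyltransferase gene that sets the breakdown of thiopurine drugs, ran from 7.52 to 11.06 with a median of 10.53 in low class livers and from 7.33 to 10.96 with a median of 9.66 in other livers, 1.84-fold higher (0.88 ± 0.101 on the log2 scale, adjusted p = 3.63e-13 in limma). Akr1c19, an aldo-keto reductase gene 381 measured genes from Zfp874a, had medians of 7.90 in low class livers and 9.18 in other livers, 1.69-fold lower (adjusted p = 1.93e-05). Hk3, a hexokinase gene, had medians of 5.49 in low class livers and 5.79 in other livers, 1.23-fold lower (adjusted p = 4.02e-15), and Pxdc1 was 1.42-fold lower (adjusted p = 3.56e-11). These 4 genes overlapped between the classes.

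Smaller differences were found in 4 more of these hand-picked genes. The hepatokine gene Lect2 was 1.13-fold higher (adjusted p = 0.00032), and the thrombin receptor gene F2r was 1.11-fold lower (adjusted p = 0.0019); both lost the call without covariates. The mitochondrial ribosome gene Mrps27 was 1.11-fold lower (adjusted p = 1.56e-05) and Ndufs4, of respiratory complex I, 1.09-fold higher (adjusted p = 0.000102).

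When all 32639 probes were fitted, 21 of the called probes carried no gene name.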
